A study of Mus musculus with 12 samples.

Results

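The genes described here encode 9 acute-phase and neutrophil proteins, *Lcn2*, *S100a8*, *S100a9*, *Saa3*, *Orm1*, *Orm2*, *Orm3*, *Hp* and *A2m*, measured in the mouse hippocampus. They were chosen by name, with their differences between groups on these arrays already known, so the values below are a description of them and no test is given for them. Each of the 9 symbols stood alone on 1 transcript cluster, the group of probes that reads out 1 gene, and 0 clusters carried a member's symbol together with others. These are 9 of the 41345 clusters on the array, of which 23521 had 1 symbol, 1820 several and 16004 none.

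RNA came from the hippocampus of 12 male mice and was read on Affymetrix Mouse Gene 2.0 ST arrays, with 1 for each mouse. The 4 groups of 3 were homozygous App[NL-F/NL-F] knock-in mice, called App mice below, given a high-fat diet (App HFD) or the regular control diet (App RD), and wild-type mice given the high-fat diet (WT HFD) or the control diet (WT RD). The knock-in humanizes Aβ and adds the Swedish and the Iberian mutation within the endogenous *App* gene, so that no transgene promoter is involved, and both genotypes were kept as inbred lines on the C57BL/6J background. All mice were killed at 18 months, after 12 months on their diet that began at 6 months, and were perfused with saline before dissection. The labels give the HFD-fed mice of both genotypes as diabetic and the RD-fed mice as non-diabetic, so that diet and diabetes cannot be told apart.

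Acute-phase proteins are secreted mainly by the liver when interleukin-1 and interleukin-6 signal inflammation, through the transcription factors NF-kB, STAT3 and the C/EBP family. Several of them are also made outside the liver, and in the inflamed brain *Lcn2* is a known product of reactive astrocytes, endothelium and infiltrating neutrophils. Neutrophils carry LCN2 in their granules and the S100A8-S100A9 pair in their cytosol.

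The windows upstream of *Lcn2*, the member with the widest spread between mice, and of *Orm2* and *Orm3*, which are neighbouring copies of 1 gene family, are shown for reference. They are from the RefSeq promoter table for GRCm38.p6, which held 1 window for each of *Lcn2*, *S100a8*, *S100a9*, *Saa3*, *Orm2* and *Orm3* and which was searched over the 250 bases before the listed start. The *Lcn2* sequence is that whole window, and the *Orm* sequences are its first 160 bases. Capitals mark matches to TTNNGNAA, a short form of the C/EBP motif, on either strand.
*Lcn2* (chr2:32387740-32387989, minus strand): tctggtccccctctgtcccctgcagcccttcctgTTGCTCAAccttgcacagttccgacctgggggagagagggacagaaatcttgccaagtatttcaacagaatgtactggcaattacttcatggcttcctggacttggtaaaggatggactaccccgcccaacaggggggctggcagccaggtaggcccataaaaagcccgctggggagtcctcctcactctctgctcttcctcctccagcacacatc
*Orm2* (chr4:63362199-63362358, plus strand): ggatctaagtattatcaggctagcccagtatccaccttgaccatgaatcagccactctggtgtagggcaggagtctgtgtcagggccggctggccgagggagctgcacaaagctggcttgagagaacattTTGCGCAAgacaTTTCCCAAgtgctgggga
*Orm3* (chr4:63355908-63356067, plus strand): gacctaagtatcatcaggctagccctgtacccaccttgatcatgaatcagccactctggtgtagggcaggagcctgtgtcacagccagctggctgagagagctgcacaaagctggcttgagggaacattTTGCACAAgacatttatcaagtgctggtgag

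The C/EBP letters TTNNGNAA were found in all 6 of the members' windows and in 36.8% of all 32851 windows of the same length. C/EBPβ is known from work on the gene of α1-acid glycoprotein, the protein that the *Orm* genes encode. The *Orm2* and *Orm3* stretches were identical at 143 of 159 aligned bases (89.9%), with 1 C/EBP match in *Orm3* and 2 in *Orm2*. The 6 windows are thus not 6 separate observations, and no enrichment is read from any of these counts. The STAT letters TTCNNNGAA were in 0 of the 6 windows (7.02% of all windows), the NF-kB letters GGNNNTTCC in 1, that of *Saa3* (15.7%), and the TATA box letters TATAAA in 3, those of *S100a8*, *Orm2* and *Orm3* (12.4%). All searches took both strands. Matches to TTNNGNAA overlapped each other only where 1 site read the same on both strands, the NF-kB match of *Saa3* overlapped a C/EBP match, and a match is a string of letters and no shown binding site.

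All 9 members were dim. Values are log2 expression as deposited, and an intensity of 100, which is 6.64 on that scale, was taken as the line below which a signal is dim. The mean over the 12 mice was highest for *Lcn2* at 5.72, above 64.4% of all clusters, followed by *A2m* at 5.50 and *Hp* at 4.74, and was lowest for *Orm3* at 2.70, above 13.4% of all clusters. These are signals of different probes and give no order of RNA amount between genes. Only 2 of the 12 mice had *Lcn2* above the line, and for the other 8 members no mouse did. In the bulk tissue, a lower signal can come from fewer cells of a type or from less RNA per cell, and these cannot be told apart.

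**Figure D1:**
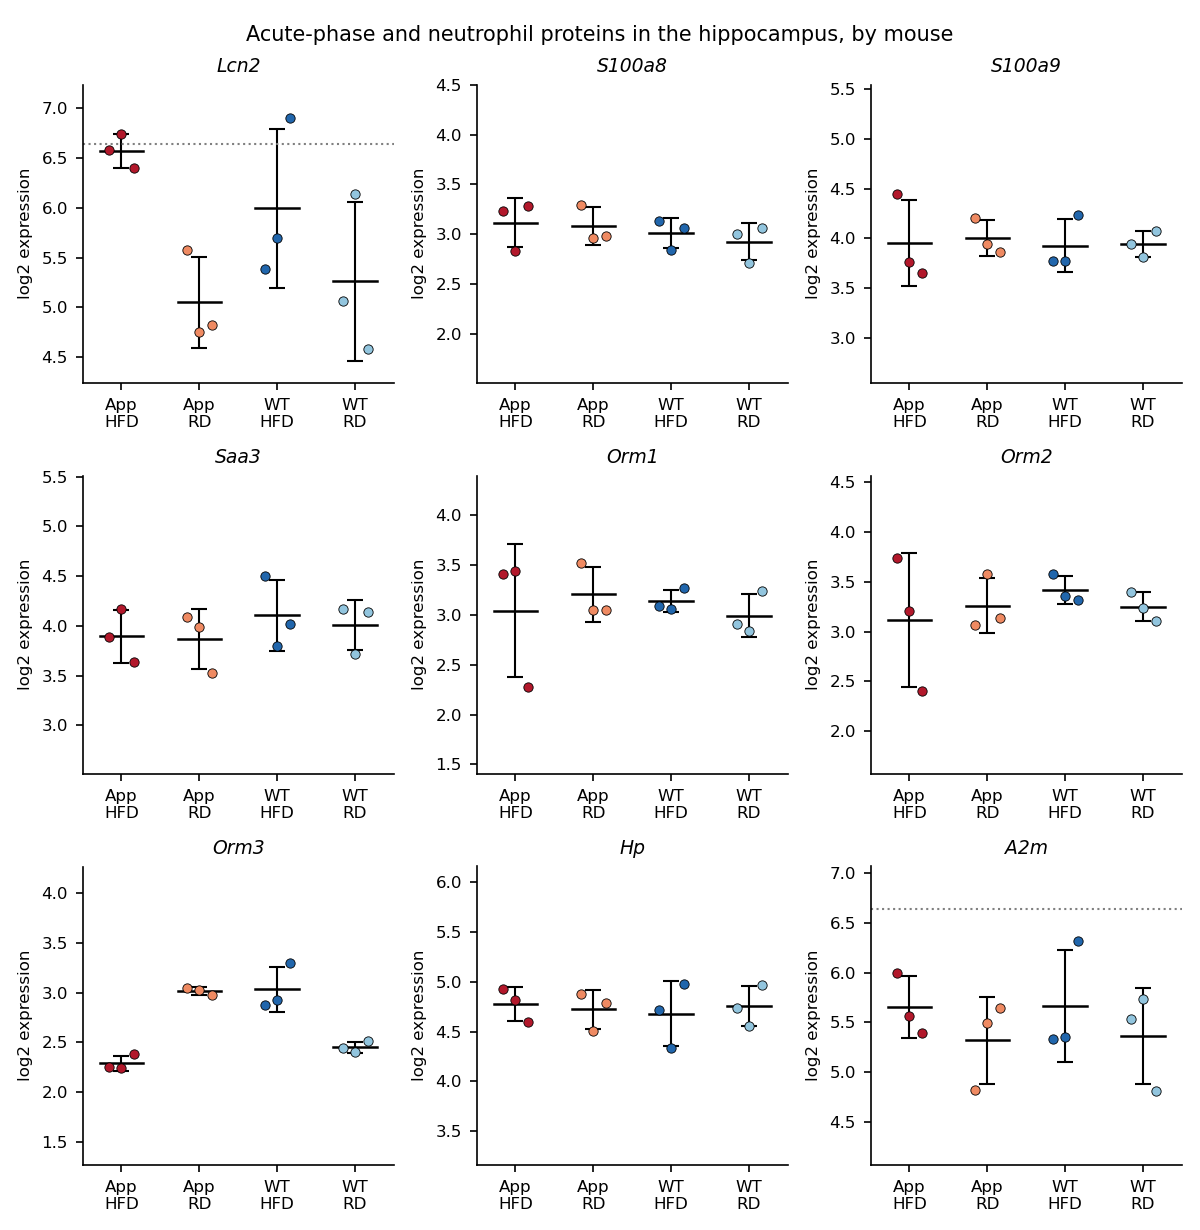
Log2 expression of the 9 members in each mouse (points), with the group mean (bar) and SD (whiskers, n = 3 mice), for App HFD, App RD, WT HFD and WT RD. Every panel spans 3 log2 units, and the dotted line, where it is in view, is an intensity of 100. *Lcn2* has the widest scatter, and *Orm3* is the only member whose 3 values stay apart in every pair of groups that differ by diet or by genotype alone.

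*Lcn2* encodes lipocalin-2, also called 24p3 or NGAL, which binds bacterial siderophores and so withholds iron. Its log2 expression was 6.58, 6.74 and 6.40 in the 3 App HFD mice, 5.58, 4.76 and 4.83 in the App RD mice, 5.39, 5.70 and 6.90 in the WT HFD mice and 5.06, 6.14 and 4.58 in the WT RD mice. All 3 App HFD mice lay above all 3 App RD mice. The wild-type groups overlapped, and WT HFD mouse 3 had the highest value of all 12. WT RD mouse 2, at 6.14, lay above every App RD mouse and above both other WT HFD mice.

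The group means of *Lcn2* were 6.57 ± 0.17 in App HFD, 5.05 ± 0.46 in App RD, 5.998 ± 0.80 in WT HFD and 5.26 ± 0.80 in WT RD (SD, n = 3 mice each). In linear intensity, the App HFD mice lay between 84.6 and 107, the App RD mice between 27.0 and 47.9, the WT HFD mice between 42.0 and 119.5 and the WT RD mice between 23.9 and 70.4. HFD-fed minus RD-fed, the log2 difference was 1.52 (standard error 0.45 from limma) in App mice, a 2.87-fold higher level, and 0.74 (standard error 0.45) in wild-type mice, a 1.67-fold higher level. The difference between these 2 diet differences was 0.78, with a standard error of 0.63. Of neighbours in the order of means, App HFD and WT HFD differed by 0.58 and WT RD and App RD by 0.21, the first with overlapping mice and the second by less than its standard error of 0.45.

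The wild-type values rested on single mice. Without WT HFD mouse 3 the wild-type diet difference of *Lcn2* was 0.29 and the App HFD minus WT HFD difference 1.03, and without WT RD mouse 2 the wild-type diet difference was 1.18 and the App RD minus WT RD difference 0.23, positive in place of -0.21. Without WT RD mouse 3 these last values were 0.40 and -0.55, and without WT HFD mouse 1 the App HFD minus WT HFD difference was 0.27. The App HFD minus App RD difference stayed between 1.37 and 1.78 whichever mouse was left out. The residual SD of *Lcn2* within groups, 0.61, was larger than that of 97.4% of all clusters and of 99.0% of the clusters within 0.5 log2 units of its mean.

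Over all 41345 clusters the limma fit with Benjamini-Hochberg adjustment called 0 clusters at an adjusted p under 0.05 in App HFD minus App RD (0% called), in the other 3 comparisons or in the interaction of diet and genotype. An unadjusted p under 0.05 was reached by 4.62% of the clusters in App HFD minus App RD, 6.18% in App RD minus WT RD, 5.31% in App HFD minus WT HFD, 5.22% in WT HFD minus WT RD and 4.97% in the interaction. The groups of 3 did not overlap in 9.62% of all clusters for App HFD and App RD, and in 2 of the 9 members, *Lcn2* higher and *Orm3* lower. For App RD and WT RD the background was 10.9%, for App HFD and WT HFD 11.6% and for WT HFD and WT RD 10.3%, and in each of these comparisons 1 member, *Orm3*, had groups that did not overlap. Nothing is read from the members' counts, since the genes were picked with these comparisons known.

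**Figure D2:**
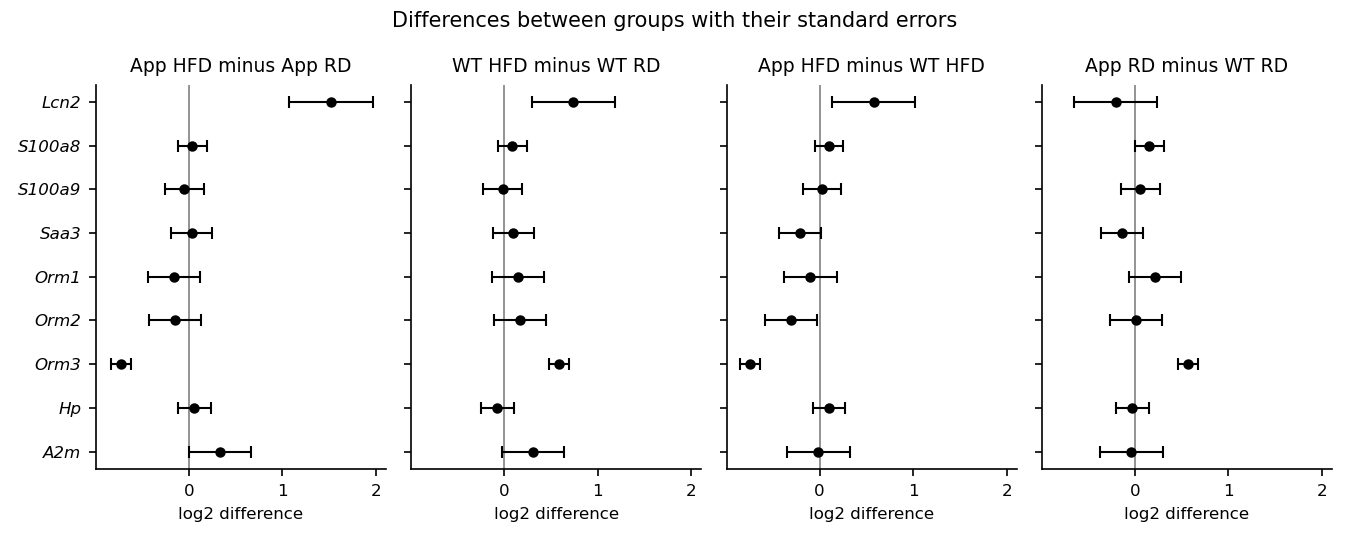
Log2 differences of the 9 members between groups (points) with the standard error of the limma fit (whiskers), in 4 panels with the same axis. The *Lcn2* difference between App HFD and App RD, 1.52, and the *Orm3* differences lie farthest from 0 relative to their standard errors.

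*S100a8* and *S100a9* encode the calcium-binding subunits of calprotectin, which neutrophils and monocytes hold in large amounts. *S100a8* had log2 values of 3.23, 2.84 and 3.28 in App HFD, 3.30, 2.96 and 2.99 in App RD, 3.13, 2.84 and 3.07 in WT HFD and 3.00, 2.71 and 3.07 in WT RD. *S100a9* had values of 4.44, 3.77 and 3.65 in App HFD, 4.20, 3.94 and 3.86 in App RD, 3.77, 3.77 and 4.23 in WT HFD and 3.94, 3.82 and 4.07 in WT RD. The groups overlapped in every comparison for both genes. The App HFD minus App RD difference was 0.04 (standard error 0.15) for *S100a8* and -0.05 (standard error 0.21) for *S100a9*. Over the 12 mice the subunits correlated at an r of 0.42, and *S100a9* at an r of 0.67 with *Hp*, as a description of values that share their arrays.

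*Saa3*, a serum amyloid A that in mice is made largely outside the liver, for example by macrophages and adipose tissue, had log2 values of 3.89, 4.17 and 3.64 in App HFD, 4.09, 3.99 and 3.53 in App RD, 4.50, 3.80 and 4.02 in WT HFD and 4.17, 3.72 and 4.14 in WT RD. Its 4 groups overlapped, and the diet difference was 0.03 (standard error 0.22) in App mice and 0.10 (standard error 0.22) in wild-type mice. Its relatives *Saa1* and *Saa2* shared 1 cluster with both symbols, which is no member and which had a mean of 2.16 over the 12 mice. *Saa2* also had a cluster of its own, with a mean of 2.33.

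*Orm1*, *Orm2* and *Orm3* encode orosomucoid, or α1-acid glycoprotein, a plasma carrier of lipids and drugs. *Orm1* had log2 values of 3.41, 3.45 and 2.28 in App HFD, 3.53, 3.05 and 3.05 in App RD, 3.09, 3.06 and 3.27 in WT HFD and 2.91, 2.84 and 3.24 in WT RD. *Orm2* had values of 3.74, 3.20 and 2.40 in App HFD, 3.07, 3.58 and 3.14 in App RD, 3.58, 3.35 and 3.32 in WT HFD and 3.40, 3.24 and 3.11 in WT RD. App HFD mouse 3 had the lowest value of all 12 mice for both genes. Without it, the App HFD minus App RD difference of *Orm1* was 0.22 and that of *Orm2* 0.21, against -0.16 (standard error 0.28) and -0.15 (standard error 0.28) with all mice.

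*Orm3* had the lowest mean of the members and the smallest spread within groups. Its log2 values were 2.25, 2.24 and 2.38 in App HFD, 3.05, 3.02 and 2.97 in App RD, 2.88, 2.93 and 3.30 in WT HFD and 2.44, 2.40 and 2.51 in WT RD. The App RD and WT HFD mice all lay above the App HFD and WT RD mice. HFD-fed minus RD-fed, the difference was -0.73 (standard error 0.11) in App mice and 0.58 (standard error 0.11) in wild-type mice. App minus wild-type, it was -0.75 (standard error 0.11) on the HFD and 0.56 (standard error 0.11) on the RD. These are differences between linear intensities of 4.7 to 9.8, the residual SD of 0.12 was below that of all but 4.84% of the clusters of like level, and the correlation with *Orm2* was an r of 0.15 and with *Orm1* an r of 0.21 over the 12 mice. Of all clusters, 211 (0.51%) had diet differences of opposite sign with no overlap in either genotype, and 79 (0.191%) had opposite genotype differences with no overlap on either diet as well. The likeness of *Orm2* and *Orm3* given above is of bases upstream of the genes. Their transcripts and probes were not compared, so how far the probes of the *Orm* genes share targets was not tested.

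*Hp* encodes haptoglobin, which binds free haemoglobin in plasma. It had log2 values of 4.93, 4.82 and 4.59 in App HFD, 4.88, 4.51 and 4.79 in App RD, 4.72, 4.34 and 4.98 in WT HFD and 4.74, 4.56 and 4.97 in WT RD. The groups overlapped, with a diet difference of 0.06 (standard error 0.18) in App mice and -0.07 (standard error 0.18) in wild-type mice.

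*A2m* encodes alpha-2-macroglobulin, a protease trap that also binds cytokines and Aβ and is cleared through LRP1. Its log2 values were 6.002, 5.57 and 5.39 in App HFD, 4.82, 5.49 and 5.65 in App RD, 5.33, 5.35 and 6.32 in WT HFD and 5.53, 5.74 and 4.82 in WT RD. As for *Lcn2*, WT HFD mouse 3 was the highest of all mice, and over the 12 mice *A2m* correlated with *Lcn2* at an r of 0.59, and at 0.53 for deviations from the group means. The diet difference was 0.33 (standard error 0.33) in App mice and 0.31 (standard error 0.33) in wild-type mice, and the groups overlapped. Leaving out 1 mouse moved both. In App mice it was 0.085 without App RD mouse 1 and 0.16 without App HFD mouse 1, and up to 0.50 without another. In wild-type mice it was -0.019 without WT HFD mouse 3 and 0.034 without WT RD mouse 3, and up to 0.49 without another. The mean of the choroid plexus markers correlated with *A2m* at an r of 0.61, and at 0.78 for deviations from the group means. With that mean in the model the diet difference was 0.54 (standard error 0.23) in App mice and 0.32 (standard error 0.23) in wild-type mice. With the mean of the *Hba-a* haemoglobin clusters in its place, it was 0.16 (standard error 0.34) in App mice and 0.48 (standard error 0.34) in wild-type mice.

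The other acute-phase proteins, also listed with earlier results of these arrays known, were measured for 21 of 25 genes, and 5 of the 21 were brighter than the line at 100. In App HFD minus App RD 16 were above 0 and 5 below, with a median log2 difference of 0.10 beside -0.002 over all clusters. In WT HFD minus WT RD 15 were above 0 and 6 below, with a median of 0.06. For the interaction 11 were above 0 and 10 below, with a median of 0.01. In App HFD minus App RD 0 passed an adjusted p of 0.05, and 2 of 21 had an unadjusted p under 0.05. These were *Lrg1*, a secreted leucine-rich glycoprotein, and *Serpina3n*, a serine protease inhibitor of reactive astrocytes. The adjusted p was 0.999 for both (limma).

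*Lrg1* had log2 values of 5.23, 5.15 and 5.68 in App HFD, 4.73, 4.77 and 4.44 in App RD, 5.07, 5.07 and 5.36 in WT HFD and 5.03, 5.50 and 4.57 in WT RD. The App HFD mice all lay above the App RD mice, and WT RD mouse 2 was again the highest of its group, as for *Lcn2*. The log2 difference was 0.71 (standard error 0.22) in App mice and 0.14 (standard error 0.22) in wild-type mice. Over the 12 mice *Lrg1* had the highest r with *Lcn2* of the 21 genes, 0.79, and 0.64 for deviations from the group means. The median r of the 21 was 0.22, with 20 above 0 and *Saa4* lowest at -0.33, and for deviations it was 0.11, with 15 above 0 and *Crp* lowest at -0.51.

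*Serpina3n*, a bright cluster with a mean of 9.65, had values of 9.86, 10.14 and 9.66 in App HFD, 9.41, 9.59 and 9.68 in App RD, 9.71, 9.52 and 9.64 in WT HFD and 9.50, 9.52 and 9.58 in WT RD. The App groups overlapped at 1 mouse, and the diet difference was 0.33 (standard error 0.12) in App mice and 0.09 (standard error 0.12) in wild-type mice. Its r with *Lcn2* was 0.48, and -0.11 for deviations from the group means. Next by p came 2 dim clusters, *Crp*, C-reactive protein, at 0.33 (standard error 0.17), and *Pzp*, a relative of alpha-2-macroglobulin, at 0.30 (standard error 0.21). In WT HFD minus WT RD, and again in App RD minus WT RD, 1 of the 21 genes had an unadjusted p under 0.05, *Cp*, the copper-binding ferroxidase ceruloplasmin, at 0.44 (standard error 0.14) and 0.35 (standard error 0.14).

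The cytokines, receptors and transcription factors that induce the acute phase were measured for 24 of 25 genes. In App HFD minus App RD 15 were above 0 and 9 below, with a median of 0.07. In WT HFD minus WT RD the counts were also 15 and 9, with a median of 0.05. For the interaction they were 15 and 9 again, with a median of 0.02. In App HFD minus App RD 2 of 24 had an unadjusted p under 0.05, both receptor genes and both with an adjusted p of 0.999 (limma). *Il6ra*, the interleukin-6 receptor, had values of 6.44, 6.52 and 6.35 in App HFD, 5.96, 6.21 and 6.01 in App RD, 6.30, 6.41 and 6.25 in WT HFD and 6.04, 6.39 and 6.25 in WT RD. *Osmr*, the oncostatin M receptor, had values of 6.80, 6.96 and 6.93 in App HFD, 6.54, 6.66 and 6.60 in App RD, 6.78, 6.71 and 6.83 in WT HFD and 6.49, 6.87 and 6.46 in WT RD. For both, the App HFD mice lay above the App RD mice, by 0.38 (standard error 0.11) and 0.30 (standard error 0.11). The wild-type diet differences were 0.10 (standard error 0.11) for *Il6ra* and 0.16 (standard error 0.11) for *Osmr*. The App diet differences exceeded these by 0.28 (standard error 0.15) and 0.13 (standard error 0.15).

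The ligand gene *Il1b* differed by 0.30 (standard error 0.16) in App HFD minus App RD and *Socs3*, a feedback inhibitor that STAT3 induces, by -0.30 (standard error 0.15), both without passing an unadjusted p of 0.05. The transcription factors *Stat3*, *Cebpb* and *Cebpd*, named here for their role after their values were seen, had means over the 12 mice of 8.01, 5.56 and 5.27.

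**Figure D3:**
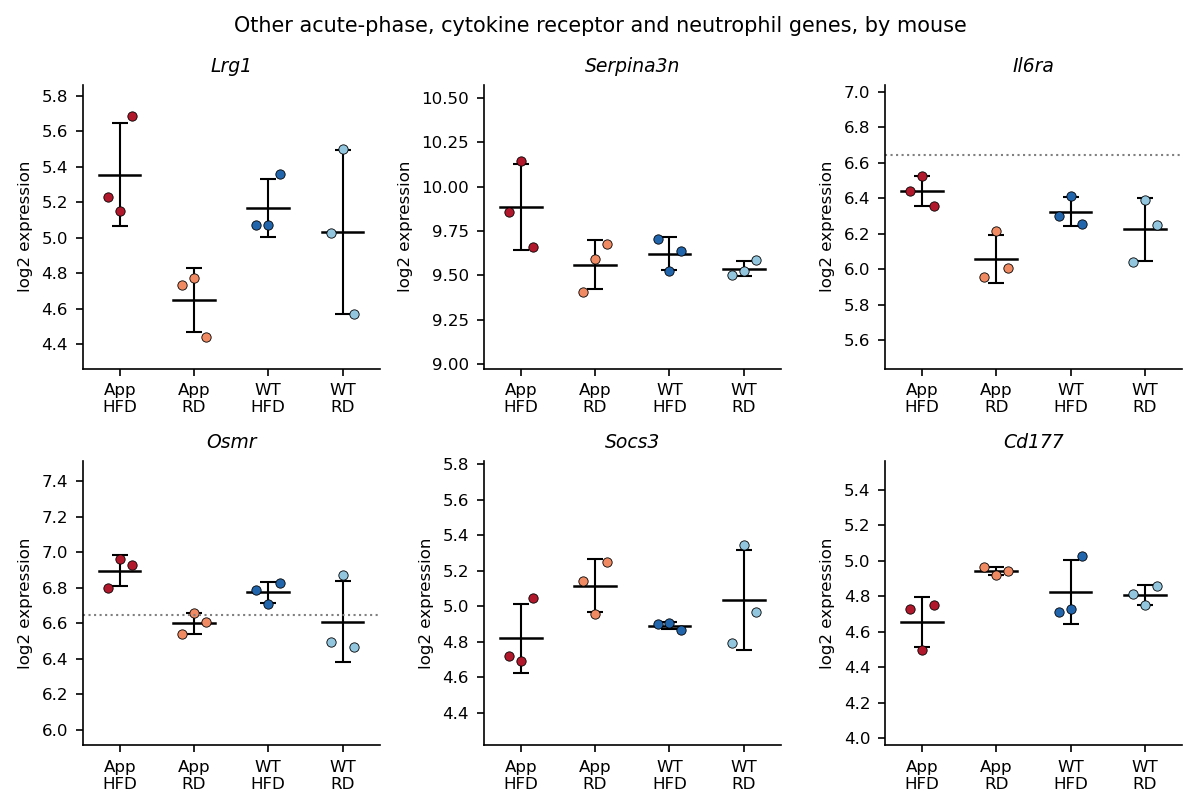
Log2 expression of 6 listed genes in each mouse (points), with group mean (bar) and SD (whiskers, n = 3 mice), each panel spanning 1.6 log2 units, and with a dotted line at an intensity of 100 where it is in view. App HFD lies above App RD without overlap for *Lrg1*, *Il6ra* and *Osmr*, and below it for *Cd177*.

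Receptors and binding partners of the members were measured for 14 of 15 genes, and in App HFD minus App RD 5 were above 0, 9 below and 0 at an unadjusted p under 0.05. The 4 with the smallest p were *Ager*, a receptor of S100 proteins, at -0.19 (standard error 0.10), *Cd163*, the scavenger receptor of haptoglobin-haemoglobin, at 0.26 (standard error 0.16), *Tlr4*, which binds S100A8, at 0.14 (standard error 0.11), and the chaperone *Hspa5* at -0.15 (standard error 0.12). Of the 2 receptors of LCN2, named after their values were seen, *Slc22a17* had a mean of 10.01 and *Lrp2*, megalin, a mean of 4.27.

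Of 21 neutrophil markers 20 were measured, and all 20 had a mean below an intensity of 100. The brightest was *Csf3r*, the receptor of granulocyte colony-stimulating factor, at 5.68, and *Ly6g*, which defines mouse neutrophils, had a mean of 2.62, above 12.5% of all clusters. In App HFD minus App RD 7 were above 0 and 13 below, with a median of -0.05, and 2 of 20 had an unadjusted p under 0.05, *Padi4*, the enzyme that citrullinates histones in neutrophils, at -0.30 (standard error 0.10) and the surface protein *Cd177* at -0.28 (standard error 0.10). The adjusted p was 0.999 for both (limma). The summed intensity of the 20 clusters ran from 331 to 350.04 in App HFD, 330.1 to 349.99 in App RD, 320.3 to 354 in WT HFD and 329 to 344 in WT RD, and their mean correlated with *Lcn2* at an r of -0.06, and at 0.27 for deviations from the group means.

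The genes related to the members by family behaved as follows in App HFD minus App RD. Of 13 other S100 genes 7 were above 0 and 6 below, with 1 at an unadjusted p under 0.05, *S100a6*, at 0.33 (standard error 0.12). Next came *S100a14*, *S100a5* and *S100a3* at -0.32 (standard error 0.17), 0.54 (standard error 0.37) and 0.09 (standard error 0.12). *S100a5* was dim, with a mean of 2.47. Its difference rested on App HFD mouse 1, with values of 3.95, 2.32 and 2.51 in App HFD and 2.32, 2.41 and 2.44 in App RD. Of 11 other lipocalins 8 were above 0 and 3 below, with 2 at an unadjusted p under 0.05, *Apod*, the glial apolipoprotein D, at 0.31 (standard error 0.10), and *Lcn5* at -0.31 (standard error 0.12), followed by *Lcn8* and *Lcn10* at 0.22 and -0.26. *Apod* had a diet difference of 0.33 (standard error 0.10) in wild-type mice as well, with values of 9.92, 9.65 and 9.80 in App HFD, 9.31, 9.64 and 9.48 in App RD, 9.72, 9.58 and 9.68 in WT HFD and 9.30, 9.43 and 9.27 in WT RD.

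Of 9858 clusters brighter than an intensity of 100 on average, with or without a symbol, 6 had a Pearson r over 0.8 with *Lcn2* over the 12 mice. The 10 genes named here are the highest among those on a cluster with 1 symbol, at an r between 0.78 and 0.90, and clusters that are not named stood between them. The nearest was *Asns*, asparagine synthetase, a target of the amino acid and stress response factor ATF4, at an r of 0.90 and a Spearman rho of 0.96. *Asns* had values of 8.78, 8.68 and 8.72 in App HFD, 8.66, 8.51 and 8.53 in App RD, 8.62, 8.66 and 8.74 in WT HFD and 8.64, 8.66 and 8.49 in WT RD. Its whole range was thus narrow beside that of *Lcn2*, 2.32, and its App HFD minus App RD difference was 0.16 (standard error 0.08).

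The others, in falling order of r, were *Fbxo44*, *Osmr*, *Msn* (moesin, which ties membranes to actin), *Ubald1*, *Rab5b* (an early endosome GTPase), *Epas1* (the hypoxia factor HIF-2α, high in endothelium), *Ptcd3*, *Lin7b* and *Fastk*. Without the 2 mice farthest from the median of *Lcn2*, WT HFD mouse 3 and App HFD mouse 2, the r was 0.94 for *Asns* and 0.79 for *Osmr*, and lowest for *Lin7b* at 0.61. These are correlations of samples in 4 groups that share their arrays, chosen as the highest of many, and they are given with no p.

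**Figure D4:**
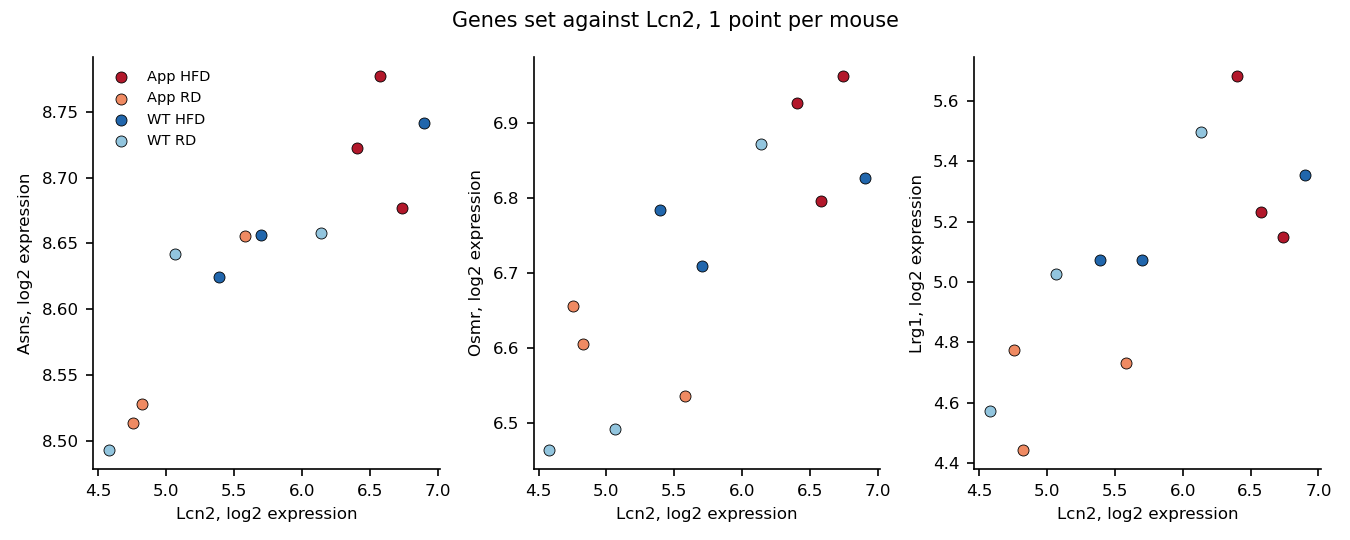
*Asns*, *Osmr* and *Lrg1* against *Lcn2*, each in log2 expression, 1 point per mouse and coloured by group. The r over the 12 mice is 0.90 for *Asns*, 0.82 for *Osmr* and 0.79 for *Lrg1*, and WT RD mouse 2 stands with the high points of the plots of *Osmr* and *Lrg1*.

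Markers of other cell types were set beside these values. All 8 hippocampal neuron markers had means above an intensity of 100, as the labelled tissue would have. The mean of the 8 endothelial markers correlated with *Lcn2* at an r of 0.60, and at 0.68 for deviations from the group means, and lay between 6.51 and 6.66 in App HFD, 6.53 and 6.61 in App RD, 6.41 and 6.85 in WT HFD and 6.20 and 6.59 in WT RD. For the 8 reactive astrocyte markers, which hold *Osmr* too, the r was 0.60 and 0.44, with means between 6.12 and 6.28 in App HFD, 6.03 and 6.15 in App RD, 6.01 and 6.09 in WT HFD and 5.85 and 6.05 in WT RD. The part of either cell type in the *Lcn2* values was not tested.

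The 9 choroid plexus markers differed widely between mice, with means of 5.41 to 7.08 in App HFD, 5.30 to 7.53 in App RD, 5.45 to 7.27 in WT HFD and 6.19 to 6.98 in WT RD, and correlated with *Lcn2* at an r of -0.10, and at 0.16 for deviations from the group means. With their mean in the model, the *Lcn2* diet difference in App mice was 1.58 (standard error 0.48) and that of *Orm3* -0.72 (standard error 0.12). The liver transcript *Alb*, albumin, was at 5.01, 5.92 and 4.04 in App HFD, 4.11, 4.03 and 4.30 in App RD, 4.33, 3.79 and 3.46 in WT HFD and 4.05, 3.68 and 3.65 in WT RD, and so was highest in App HFD mice 1 and 2. *Cyp2e1*, another liver gene, had the smallest p of its list in App HFD minus App RD, at 0.52 (standard error 0.14), with an adjusted p of 0.999 (limma). *Alb* and *Cyp2e1* were both dim, with means of 4.20 and 3.92 over the 12 mice. In the same comparison *Ahsg*, *Apoa1* and *Apoa2* differed by 0.21 (standard error 0.25), 0.03 (standard error 0.19) and 0.19 (standard error 0.16). *Ttr*, which is also a choroid plexus marker, differed by -1.11 (standard error 1.45).

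In App HFD minus App RD, 0 of 9 choroid plexus markers were above 0, 5 of 6 hepatocyte markers, 4 of 8 endothelial markers, 6 of 8 reactive astrocyte markers, 5 of 8 meningeal fibroblast markers, 5 of 8 hippocampal neuron markers, 5 of 7 microglia markers and 6 of 7 markers of monocytes and T and B cells. Of the microglia markers 1 had an unadjusted p under 0.05, *Cd68*, a lysosomal protein, at 0.21 (standard error 0.09), and of the blood cell markers 1, the monocyte gene *Ly6c2*, at 0.26 (standard error 0.10). No marker passed an adjusted p of 0.05 (limma). *Ttr* stood in both the choroid plexus and the hepatocyte list, and was the hepatocyte marker below 0. The choroid plexus markers were low together in App HFD mice 2 and 3, App RD mouse 1 and WT HFD mouse 1. Their 0 of 9 is thus not 9 separate observations.

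Haemoglobin was read by clusters with several symbols. The brighter of the *Hba-a1* and *Hba-a2* clusters had values of 9.001, 6.82 and 5.64 in App HFD, 6.04, 6.60 and 5.74 in App RD, 5.39, 5.97 and 8.32 in WT HFD and 6.53, 8.01 and 8.87 in WT RD, so that perfused hippocampi still differed widely in it. The mean of 6 red blood cell clusters correlated with *S100a9* at an r of 0.66, with *Hp* at 0.54 and with *Lcn2* at 0.24, and at 0.85, 0.60 and 0.23 for deviations from the group means. For *Orm1* and *Orm2* the r was 0.40 and 0.33, and 0.66 and 0.48 for deviations. *Orm3* had the lowest r of the members, -0.29, and 0.43 for deviations. With the mean of the *Hba-a* clusters in the model, the diet difference of *Lcn2* was 1.34 (standard error 0.48) in App mice and 0.92 (standard error 0.48) in wild-type mice, and their difference 0.43 (standard error 0.72). The App RD minus WT RD difference of *S100a9* was then 0.37 (standard error 0.16), against 0.06 (standard error 0.21) without it. That of *Orm1* was 0.57 (standard error 0.26), against 0.21 (standard error 0.28). The interaction of *Orm1* was -0.78 (standard error 0.36), against -0.31 (standard error 0.39). For *Orm2* the interaction was -0.69 (standard error 0.40), against -0.32 (standard error 0.39). The part of blood in these values was not tested further.

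**Figure D5:**
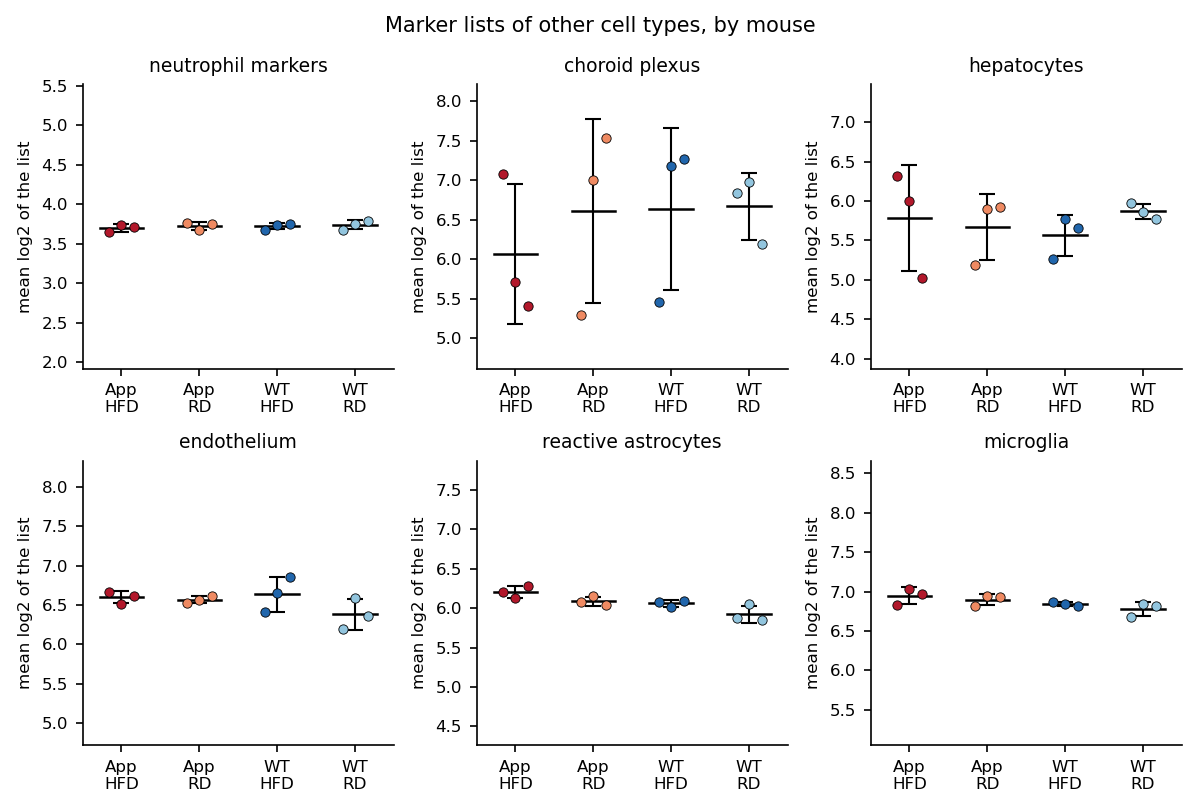
Mean log2 expression of 6 marker lists in each mouse (points), with group mean (bar) and SD (whiskers, n = 3 mice), each panel spanning 3.6 log2 units. The choroid plexus means scatter from 5.30 to 7.53, while the neutrophil means of all mice lie between 3.64 and 3.79. *Ttr* is in both the choroid plexus and the hepatocyte list.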

How the data were processed

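Mouse Gene 2.0 ST arrays were run on hippocampal RNA of 12 male mice in 4 groups of 3. The authors processed the scans with Transcriptome Analysis Console, named in the submitters' processing notes, and deposited gene-level log2 values for 41345 transcript clusters. Their summarisation and normalization steps are not stated in the labels or methods used here. Groups were taken from the sample titles, 0 value columns were unmapped, and the platform's annotation gave each cluster its symbols. The number of arrays limits the precision.

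The 4 groups entered 1 linear model over every cluster (limma 3.58.1, lmFit then eBayes, R 4.3.3), p-values were adjusted by Benjamini-Hochberg over all clusters, and the fit was tested on simulated data. The 16 gene lists, of which the members are 1, were chosen with earlier results of these data known, and members are described without a test. A cluster of their own was found for 170 of 185 listed genes. For each list the text names up to 4 genes with the smallest unadjusted p in App HFD minus App RD, any called gene, and the 10 bright genes with the highest correlation with *Lcn2*. Some further genes were named outside this rule, for their role, their signal or another comparison, among them *Csf3r*, *Ly6g*, *Cp*, *Ttr* and *Apoa1*. Predicted genes, clones, small RNAs and receptors of the olfactory or vomeronasal families are not named. Where a gene had several clusters, the brightest was used. Alternatives were median centring, quantile normalization, a trended robust spread, only bright clusters, only the arrays compared, linear means, a replicate block and leaving out each mouse. Choroid plexus and haemoglobin covariates were added after the data were seen.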

Additional observations from a re-analysis of the deposited data

Results flagged for a closer look

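The *Orm3* values were picked out because all mice of 1 genotype lay one way under the diet contrast and all mice of the other genotype the opposite way. The diet difference, HFD-fed minus RD-fed, was -0.73 in App mice and 0.58 in wild-type mice, and the genotype difference, App minus wild-type, was 0.56 on the RD and -0.75 on the HFD, with no overlap between groups in any of the 4 comparisons. Because the gene was chosen with these values known, no test is given for it here. Its cluster was among the 41345 of the limma fit, of which 0 were called at an adjusted p under 0.05 in any of the 5 comparisons. The cluster lies above only 13.4% of all clusters in mean signal. Its neighbours in the gene family, *Orm1* and *Orm2*, had overlapping groups in all 4 comparisons.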

How the results depend on the processing

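No cluster was called in the 5 comparisons under median centring, quantile normalization or the replicate block. For App HFD minus WT HFD, a trended robust spread called 2 clusters and the bright clusters alone 1. With the choroid plexus covariate 1 cluster was called in App HFD minus App RD and 1 in the interaction. Leaving out 1 mouse gave 0 to 1 calls in App RD minus WT RD, 0 to 2 in App HFD minus WT HFD and 0 in the other 3 comparisons. These calls appeared without App HFD mouse 1 (1 in each of these comparisons) and without WT HFD mouse 2 (2), and the cause was not tested. The replicate block left the *Lcn2* difference between App HFD and App RD at 1.52, with a standard error of 0.49. Of 18 pairs of mice with the same number in different groups, 7 had a correlation of deviations over 0.1 (range -0.09 to 0.33). Mice with different numbers were not set beside them, so a batch shared by number was not tested. For *Lcn2* leaving out 1 mouse gave 1.37 to 1.78 in App HFD minus App RD, 0.27 to 1.03 in App HFD minus WT HFD, -0.55 to 0.23 in App RD minus WT RD, 0.29 to 1.18 in WT HFD minus WT RD and 0.34 to 1.23 in the interaction. All 98 of its alternative values stayed within its residual SD of 0.61, which is a loose limit because that SD is wide. Of the 98, 2 had the opposite sign, both in App RD minus WT RD. *Orm3* kept its sign in all 98 alternative values, of which 95 stayed within its much smaller residual SD of 0.12. *Orm1* had the fewest within its residual SD of 0.38, 94 of 98. The sign of *S100a9* turned in 19 of 98 and that of *A2m* in 18 of 98, although all 98 of *A2m* stayed within its residual SD of 0.46. No other cluster carried a member's symbol, no member passed the filter for bright clusters, and the interaction needs all 4 groups, so these alternatives gave no value.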
